A study of Homo sapiens with 15 samples.

Results

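The 50 genes described here are a fixed list of mitotic and G2/M genes, chosen by symbol with earlier results of these data known. They include cyclins and their kinase, mitotic kinases, kinetochore and spindle checkpoint proteins, mitotic kinesins and cytokinesis factors. Also on the list are partners and targets of the anaphase-promoting complex, condensin subunits, and the proliferation marker MKI67. All 50 are among the 37787 genes of the deposited count table, and all 50 were among the 13868 genes that passed the filter on low counts. The question addressed was whether MKI67 and CENPF moved with the other 48 genes across the conditions of the study.

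Genes of this kind are transcribed late in the cell cycle. In quiescent and early cycling cells the MuvB complex with E2F4 and p130 or p107 keeps them silent, and in G2 the same core complex with B-MYB and FOXM1 activates them, through a promoter element called the cell cycle genes homology region (CHR) and through CCAAT boxes bound by NF-Y. MKI67 encodes Ki-67, which coats mitotic chromosomes and keeps them apart, and which pathologists use to score proliferation. CENPF encodes a large coiled-coil protein of the nuclear matrix and outer kinetochore that accumulates in G2. In the ovary, granulosa cells of growing follicles divide, and their proliferation stops with luteinization.

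RNA came from HGrC1, an immortalized, non-luteinized human granulosa cell line whose own FOXL2 alleles are normal. There were 15 libraries, 3 each (replicates A, B and C) of 5 conditions. Vectors received empty plasmids. FOXL2-WT and FOXL2-C134W received the wild-type or the Cys-to-Trp form of FOXL2 found in adult granulosa cell tumors, and FOXL2-WT + FOXO1 and FOXL2-C134W + FOXO1 received FOXO1-3A as well, a FOXO1 with 3 phosphorylation sites changed to alanine that stays nuclear and active. SMAD3 was co-transfected in all conditions except Vectors, so an effect of FOXL2 against Vectors cannot be told apart from that of SMAD3. Cells of passage 14 were exposed to lipid and DNA for 4 h and kept without serum for 24 h before RNA was taken. Transfection was transient, so a library can also hold RNA of untransfected cells, and in bulk RNA fewer dividing cells and less mRNA per dividing cell cannot be told apart. The labels do not say that replicates were separate cultures or days, so p-values measure only the spread between these libraries.

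Library totals ran from 14962245 to 25339094 estimated counts. FOXL2 RNA was not equal between the forms, with 561 ± 5.89 CPM in FOXL2-WT and 147 ± 27.0 in FOXL2-C134W (mean ± SD, n = 3). SMAD3 stood at 2768 ± 154 and 843 ± 37.4 CPM in these conditions, so a difference between the forms goes with a difference in the amount of transfected RNA, whose part was not tested. At the protein level, the paper reports balanced amounts of both FOXL2 forms and of FOXO1, by immunoblot of cells cultured in parallel. Of 13 granulosa markers 9 passed the filter, among them GATA4 (129 to 154 CPM over the 15 libraries) and WT1 (38.8 to 47.7 CPM). The 9 include FOXL2, which was itself transfected, and AMH at only 0.742 to 1.935 CPM. FSHR had no count in any library, CYP19A1 and INHA had at most 4, and AMHR2 had at most 7. Of 4 epithelial markers the keratins KRT7 (1154 to 1976 CPM) and KRT19 (326 to 382 CPM) were high in every library, whereas EPCAM stood at 4.78 to 7.72 CPM and CDH1 (2 to 12 counts) did not pass the filter. Of 4 leukocyte markers PTPRC had at most 5 counts and CD3E at most 1, whereas CD14 passed the filter at 0.516 to 1.58 CPM and CD68, a lysosomal protein, stood at 88.8 to 117 CPM. Of 5 stromal markers COL1A1 stood at 1062 to 1582 CPM and PDGFRB at 32.35 to 41.51 CPM. COL1A2 (0.336 to 1.44 CPM) and PDGFRA (0.646 to 1.61 CPM) were low, and DCN did not pass the filter. Replicate A of FOXL2-C134W stood apart from B and C for long transcripts, as shown with each result that rests on it. In FOXL2-WT + FOXO1 too, replicate A was the lowest for long transcripts. Around the mean of the 15 libraries, median log2-CPM of genes of 8 kb or more was -0.16 there, and 0.03 and -0.04 in B and C.

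The promoters are shown first, because CHR elements and CCAAT boxes are the sequence features by which genes of this kind are usually grouped. RefSeq promoters (GRCh38.p14) were matched for 42 of the 50 genes, with 50 start sites. The letters TTTGAA, the core of the CHR, occurred on either strand within 250 bases before the start in 25 of these 50 promoters, against 13.3% of all 35116 RefSeq promoters. CCAAT occurred on either strand in 37 of the 50, against 32% of all promoters, and both motifs in 20, against 4.69%. TAAACA, a forkhead core, occurred in 3 of the 50, those of BUB1B, CDK1 and CENPE, against 11% of all promoters. A match describes letters and no binding. Only these letters were searched, so a promoter without TTTGAA is not shown to lack a CHR. The 120 bases before the RefSeq start of MKI67 (minus strand, chr10:128126424-128126543), CENPF (plus strand, chr1:214603075-214603194), TOP2A (minus strand, chr17:40417897-40418016) and CCNB1 (plus strand, chr5:69167030-69167149) are printed 5′ to 3′ for the 2 genes in question, a long standard gene and the leading cyclin, with TTTGAA and CCAAT of either strand (TTCAAA and ATTGG) in capitals.
MKI67: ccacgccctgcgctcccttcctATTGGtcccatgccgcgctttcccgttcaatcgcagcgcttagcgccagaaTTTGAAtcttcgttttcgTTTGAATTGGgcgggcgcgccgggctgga
CENPF: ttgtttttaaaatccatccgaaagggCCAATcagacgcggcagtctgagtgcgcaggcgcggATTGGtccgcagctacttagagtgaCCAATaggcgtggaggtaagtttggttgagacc
TOP2A: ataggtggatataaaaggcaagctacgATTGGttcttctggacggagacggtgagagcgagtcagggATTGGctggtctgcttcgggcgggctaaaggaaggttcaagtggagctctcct
CCNB1: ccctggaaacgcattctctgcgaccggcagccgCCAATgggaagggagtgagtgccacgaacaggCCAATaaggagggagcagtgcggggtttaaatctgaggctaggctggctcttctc
MKI67 lies on the minus strand at chr10:128096659-128126423 and CENPF on the plus strand at chr1:214603185-214664574 (GENCODE 44, GRCh38). MKI67 has 2 TTTGAA matches, 47 and 29 bases before its start, and 2 CCAAT matches at 98 and 24 bases, the last of which overlaps the nearer TTTGAA by its first base. CENPF has 3 CCAAT matches, 94, 58 and 33 bases before its start, and no TTTGAA in the 250 bases searched. In these windows CCNB1 has 2 CCAAT matches, at 87 and 55 bases, and TOP2A 2, at 93 and 53 bases, and neither holds TTTGAA here, though TOP2A does between 120 and 250 bases. No promoter of CENPE held either motif in 250 bases.

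Measured per length, MKI67 and CENPF were among the lowest of the 50 genes. In Vectors, the deposited TPM summed over each gene's transcripts averaged 4.15 for MKI67, the lowest of the 50, and 11.2 for CENPF, rank 47. CENPE stood at 6.37 TPM and KIF14 at 8.25 TPM. CCNB1 was the highest at 387 TPM, followed by CDC20 at 344 TPM. MKI67 also has the longest transcripts of the list, with a TPM-weighted mean of 11.2 kb, against 0.676 kb for UBE2C, the shortest. Of the 50 genes, 8 had a mean of 4 kb or more, namely MKI67, ASPM (8.74 kb), KIF14 (7.11 kb), KIF20B (6.31 kb), CENPF (5.94 kb), CENPE (5.69 kb), KIF11 (5.02 kb) and TOP2A (4.69 kb).

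MKI67 was lowest in FOXL2-WT and highest in FOXL2-C134W. MKI67 measured 40.8, 32.6 and 29.6 CPM in Vectors A, B and C, 17.5, 19.3 and 18.7 in FOXL2-WT, 39.9, 63.9 and 60.6 in FOXL2-C134W, 24.2, 34.6 and 25.7 in FOXL2-WT + FOXO1 and 29.4, 35.1 and 31.9 in FOXL2-C134W + FOXO1. Its 3 values in FOXL2-WT lay below all 12 others, and FOXL2-C134W overlapped Vectors only through replicate A. The gene had 287 to 1529 estimated counts per library. In the order of the means, FOXL2-WT + FOXO1 (28.2 CPM), FOXL2-C134W + FOXO1 (32.2 CPM) and Vectors (34.3 CPM) lay between these extremes and overlapped each other.

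CENPF had the same order of means, with a wide spread in FOXL2-C134W. CENPF measured 64.5, 51.4 and 52.8 CPM in Vectors A, B and C, 31.1, 32.4 and 36.1 in FOXL2-WT, 39.4, 79.1 and 78.4 in FOXL2-C134W, 36.1, 47.2 and 37.4 in FOXL2-WT + FOXO1 and 41.3, 48.3 and 51.0 in FOXL2-C134W + FOXO1. Replicate A of FOXL2-C134W, at 39.4 CPM, lay near the FOXL2-WT libraries, while B and C were the highest of all 15. FOXL2-C134W averaged 65.6 ± 22.7 CPM and FOXL2-WT 33.2 ± 2.58 CPM (SD, n = 3). Of neighbours in the order of means, only FOXL2-C134W + FOXO1 and Vectors did not overlap.

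The other 48 genes spanned less. Around its mean over the 15 libraries, log2-CPM of MKI67 ran from -0.84 to 1.03 and that of CENPF from -0.58 to 0.77, whereas the median of the other 48 ran from -0.13 to 0.12. In every FOXL2-WT library all 48 others lay above MKI67, and in every FOXL2-C134W library all 48 lay below it. CENPF lay below 47, 47 and 48 of the 48 in FOXL2-WT A, B and C. In FOXL2-C134W it lay below 47 of them in replicate A and above all 48 in B and C. The median of the 257 tested genes with transcripts of 8 kb or more went from -0.09, -0.05 and -0.12 in FOXL2-WT A, B and C to -0.02, 0.23 and 0.16 in FOXL2-C134W A, B and C.

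**Figure D1:**
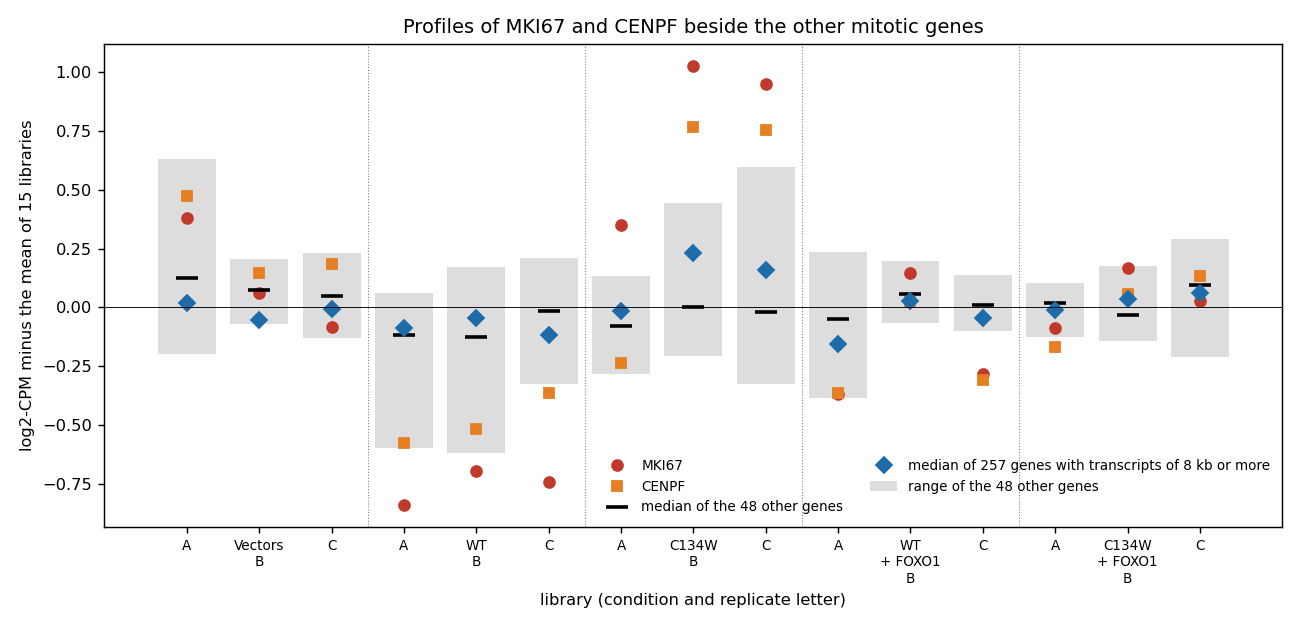
Log2-CPM of each library minus the mean of the 15 libraries, for MKI67 (circles), CENPF (squares), the median (black dash) and range (grey bar) of the 48 other genes, and the median of 257 tested genes with transcripts of 8 kb or more (diamonds). MKI67 lies below all 48 others in the 3 FOXL2-WT libraries and above all 48 in the 3 FOXL2-C134W libraries, and CENPF of FOXL2-C134W A stays low while B and C are high.

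Against Vectors, FOXL2-WT had lower RNA of many of these genes. Of the 50 genes, 22 fell and 0 rose (edgeR quasi-likelihood test, Benjamini-Hochberg adjusted p under 0.05 over all genes tested), beside 3.61% of all genes tested that fell and 2.46% that rose. The median log2 fold change of the 50 was -0.17, against 0.00 over all genes tested, and 46 of the 50 were negative. The 5 genes with the smallest p were MKI67 (-0.90, SE 0.17, edgeR adjusted p = 0.0033), FOXM1 (-0.23, SE 0.05, adjusted p = 0.0063), the condensin subunit NCAPG (-0.24, SE 0.05, adjusted p = 0.0080), the microtubule bundler NUSAP1 (-0.28, SE 0.06, adjusted p = 0.0084) and TOP2A (-0.34, SE 0.07, adjusted p = 0.0092). MKI67 fell from 34.3 to 18.5 CPM and CENPF from 56.2 to 33.2 CPM (-0.76, SE 0.19, edgeR adjusted p = 0.024). The libraries of the 2 conditions did not overlap for any of the 22 genes. These genes were picked by the test on the same libraries, so this adds nothing to the calls, and the share over all genes was not computed. MKI67 was called whichever of the 6 libraries was left out, whereas CENPF was called in 3 of these 6 fits. The count of 22 depended on single libraries, with 2 called without Vectors A, 3 without FOXL2-WT A, 5 without FOXL2-WT B, 11 without Vectors B and 14 without Vectors C.

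By role, the fall in FOXL2-WT took in 4 of 5 chromosome structure and surface genes (MKI67, TOP2A, NCAPG and NCAPD2), 5 of 9 kinetochore and checkpoint genes (CENPE, CENPF, NDC80, NUF2 and BUB1) and 7 of 16 kinesins and spindle proteins (KIF11, KIF14, KIF20A, TPX2, NUSAP1, HMMR and DLGAP5). Among 10 cyclins, kinases and their activators 4 fell, namely CCNB2, CDK1, AURKA and FOXM1. Only RACGAP1 fell among 5 cytokinesis genes and only PTTG1 among 5 genes of anaphase-promoting complex and separase control, and 0 of 3 members of the chromosomal passenger complex were called. AURKB, KIF23 and PRC1 count in 2 of these groups. For genes that were not called the intervals bound the change. The log2 fold change was -0.10 for CCNB1 (approximate 95% interval -0.19 to -0.01), -0.03 for PLK1 (interval -0.12 to 0.06) and 0.23 for the ubiquitin-conjugating enzyme UBE2S, the highest of the 50 (edgeR adjusted p = 0.18).

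The next genes are the standard mitotic genes, given library by library because they are the ones most often read as a mitotic signature. TOP2A measured 612, 593 and 564 CPM in Vectors A, B and C, 451, 444 and 505 in FOXL2-WT, 509, 568 and 578 in FOXL2-C134W, 466, 562 and 543 in FOXL2-WT + FOXO1 and 549.9, 519.9 and 619 in FOXL2-C134W + FOXO1. TOP2A, the topoisomerase that untangles sister chromatids, had its lowest mean in FOXL2-WT, where the highest library stood at 505 CPM against 564 CPM in the lowest Vectors library. CCNB1 measured 263, 269 and 252 CPM in Vectors A, B and C, 239, 239 and 253 in FOXL2-WT, 231, 231 and 221 in FOXL2-C134W, 262, 259 and 234 in FOXL2-WT + FOXO1 and 246, 242 and 230.2 in FOXL2-C134W + FOXO1. CDK1 measured 217, 216 and 201 CPM in Vectors A, B and C, 183, 189 and 191 in FOXL2-WT, 177, 181 and 175 in FOXL2-C134W, 198, 187 and 178 in FOXL2-WT + FOXO1 and 192, 183 and 194 in FOXL2-C134W + FOXO1. These are the cyclin and the kinase of the complex that starts mitosis, and both had their lowest mean in FOXL2-C134W, with no overlap with Vectors. PLK1 measured 146, 149 and 141 CPM in Vectors A, B and C, 139, 142 and 146 in FOXL2-WT, 149, 136 and 131 in FOXL2-C134W, 147, 144 and 144 in FOXL2-WT + FOXO1 and 136, 138 and 133 in FOXL2-C134W + FOXO1. CDC20 measured 303, 329 and 318 CPM in Vectors A, B and C, 324, 338 and 344 in FOXL2-WT, 342, 320.0 and 303 in FOXL2-C134W, 357, 327 and 334 in FOXL2-WT + FOXO1 and 333, 348 and 326 in FOXL2-C134W + FOXO1. PLK1, the polo-like kinase, and CDC20, the activator of the anaphase-promoting complex, were not called in any of the 7 comparisons. AURKA measured 159.6, 150.0 and 150.0 CPM in Vectors A, B and C, 132, 132 and 144 in FOXL2-WT, 136, 139 and 133.9 in FOXL2-C134W, 149.5, 143 and 136 in FOXL2-WT + FOXO1 and 144, 141 and 148 in FOXL2-C134W + FOXO1. BIRC5 measured 125, 129 and 122 CPM in Vectors A, B and C, 114, 122 and 118 in FOXL2-WT, 112, 109 and 104 in FOXL2-C134W, 135, 124 and 118 in FOXL2-WT + FOXO1 and 118, 116 and 103 in FOXL2-C134W + FOXO1. AURKA, the centrosomal aurora kinase, was below Vectors in all 6 libraries of FOXL2-WT and FOXL2-C134W, and BIRC5 (survivin, of the chromosomal passenger complex) was below Vectors without overlap in FOXL2-C134W. FOXM1 measured 119, 108 and 106 CPM in Vectors A, B and C, 94.8, 94.0 and 94.6 in FOXL2-WT, 105, 113 and 110.1 in FOXL2-C134W, 106, 107 and 99.5 in FOXL2-WT + FOXO1 and 96.3, 101 and 99.1 in FOXL2-C134W + FOXO1. FOXM1, the forkhead factor that activates genes of this list, had its 3 FOXL2-WT libraries between 94.0 and 94.8 CPM, below the 12 others.

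**Figure D2:**
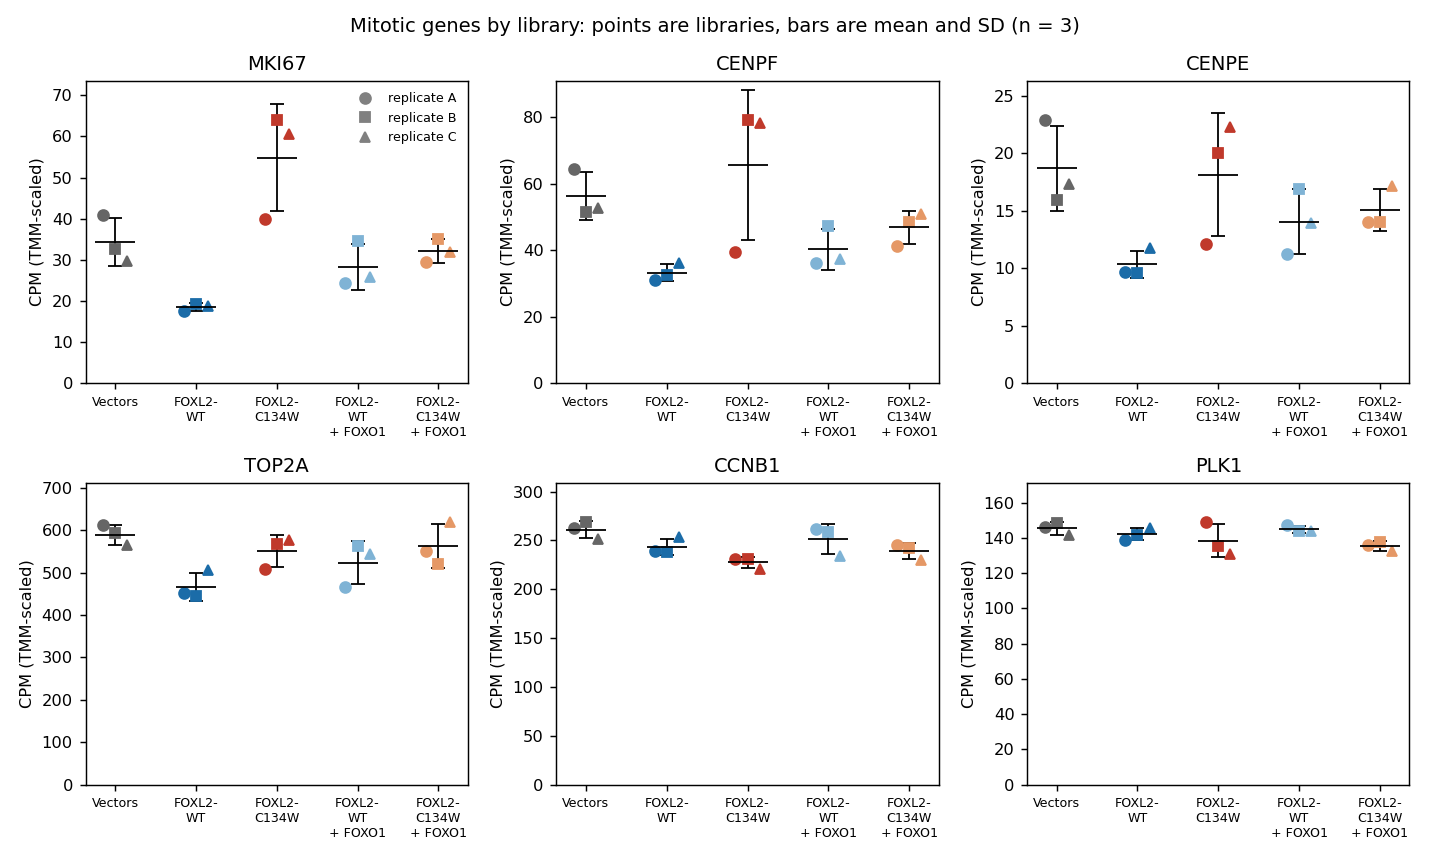
TMM-scaled CPM of MKI67, CENPF, CENPE, TOP2A, CCNB1 and PLK1 in the 15 libraries by condition, with each point a library (circle A, square B, triangle C) and bars for mean and SD of 3. MKI67, CENPF and CENPE are low in FOXL2-WT, with replicate A of FOXL2-C134W below B and C, whereas the CCNB1 and PLK1 values of all conditions lie close together.

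FOXL2-C134W against Vectors separated MKI67 from the rest. MKI67 rose from 34.3 to 54.8 CPM (log2 fold change 0.67, SE 0.15, edgeR adjusted p = 0.0049), and it was the only 1 of the 50 genes that rose, beside 7.48% of all genes tested. By contrast, 15 of the 50 fell, beside 7.24% of all genes tested. These shares of all genes differed with transcript length. Of the 257 genes tested of 8 kb or more, 24.9% rose and 3.89% fell. Of the 5249 of 2 to 4 kb, 8.34% rose and 7.125% fell, and of the 6192 under 2 kb, 3.25% rose and 8.59% fell. The median log2 fold change of the 50 was -0.10, against 0.00 over all genes tested, and 39 of them were negative. The falls with the smallest p were those of PTTG1, the securin that holds back separase (-0.31, SE 0.04, edgeR adjusted p = 7.5e-05), CDK1 (-0.25, SE 0.04, adjusted p = 0.00080), CCNB2 (-0.24, SE 0.04, adjusted p = 0.00082) and CDC25C, the phosphatase that activates CDK1 (-0.29, SE 0.07, adjusted p = 0.0060). All 4 were called whichever of the 6 libraries was left out, and so was MKI67, but MKI67 lost its call in DESeq2 with transcript length offsets (0.66, DESeq2 adjusted p = 0.10). The count of 16 called genes fell to 8 without FOXL2-C134W C or without Vectors B, and to 9 without Vectors A. The log2 fold change of CENPF was 0.22 (SE 0.18, edgeR adjusted p = 0.47), with an interval of -0.13 to 0.57. Without FOXL2-C134W A it was called higher, at 0.49 (edgeR adjusted p = 0.0034). It was also called in 1 of the 12 other settings, that which kept every gene with at least 1 count (0.22, edgeR adjusted p = 0.0059), so the call for CENPF turns on that library and on the filter.

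Among the 15 genes that fell in FOXL2-C134W were 7 of the 10 cyclins, kinases and their partners (CCNA2, CCNB1, CCNB2, CDK1, CDC25C, AURKA and TTK). Also lower were 3 of 16 kinesins and spindle proteins (KIF20A, KIF2C and NUSAP1), 2 of 9 kinetochore and checkpoint genes (NUF2 and MAD2L1), and 1 each in the passenger complex (BIRC5), cytokinesis (RACGAP1) and anaphase control (PTTG1). All 15 have transcripts under 4 kb. Of the 8 genes with longer transcripts, MKI67 was the only 1 called, and the log2 fold changes of the other 7 ran from -0.15 (KIF14) to 0.22 (CENPF).

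In FOXL2-C134W against FOXL2-WT, the comparison at the centre of the study, 10 of the 50 genes rose and 0 fell, beside 7.13% of all genes tested that rose and 4.12% that fell. MKI67 led with a log2 fold change of 1.57 (SE 0.16, edgeR adjusted p = 1.3e-05), from 18.5 to 54.8 CPM. CENPF followed at 0.97 (SE 0.19, adjusted p = 0.0025), from 33.2 to 65.6 CPM, and then CENPE, the kinesin that carries chromosomes to the spindle equator, at 0.80 (SE 0.20, edgeR adjusted p = 0.013). The others were ASPM (0.47), KIF20B (0.38), SMC4 (0.27), TOP2A (0.24), FOXM1 (0.21), KIF23 (0.19) and NCAPD2 (0.17). By role these were 4 of 5 chromosome structure and surface genes (MKI67, TOP2A, SMC4 and NCAPD2), 3 of 16 kinesins and spindle proteins (KIF20B, KIF23 and ASPM), 2 of 9 kinetochore and checkpoint genes (CENPE and CENPF) and 1 of 10 cyclins, kinases and activators (FOXM1). The 2 conditions overlapped for KIF20B and SMC4 and not for the other 8, which were also picked by the test on these libraries. MKI67, CENPF and FOXM1 were called whichever of the 6 libraries was left out, and the other 7 in 1 or 2 of these fits. The median of the 50 was 0.07, against -0.01 over all genes tested, and 18 were negative. The remaining 40 were not called, and among them the log2 fold change was -0.10 for CCNB1 (interval -0.19 to -0.01), -0.08 for CDK1 (interval -0.16 to 0.01), 0.00 for AURKA (interval -0.09 to 0.09) and -0.04 for PLK1 (interval -0.13 to 0.05). The count of 10 became 17 without FOXL2-C134W A (16 up and 1 down), and 3 without FOXL2-C134W B, without FOXL2-C134W C or without FOXL2-WT B, and 4 without FOXL2-WT A (3 up and 1 down).

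The long genes of the list, given in every library, show how replicate A differs. CENPE measured 22.8, 15.9 and 17.3 CPM in Vectors A, B and C, 9.69, 9.53 and 11.7 in FOXL2-WT, 12.1, 20.0 and 22.3 in FOXL2-C134W, 11.2, 16.9 and 13.9 in FOXL2-WT + FOXO1 and 14.0, 14.0 and 17.1 in FOXL2-C134W + FOXO1. ASPM measured 158, 139 and 149.6 CPM in Vectors A, B and C, 109, 111 and 124 in FOXL2-WT, 125, 175 and 178 in FOXL2-C134W, 112, 149 and 133.9 in FOXL2-WT + FOXO1 and 144, 145 and 165 in FOXL2-C134W + FOXO1. ASPM, a spindle pole protein, was called against FOXL2-WT (0.47, SE 0.11, edgeR adjusted p = 0.011) and not against Vectors (0.09, SE 0.11, adjusted p = 0.64). KIF14 measured 52.8, 45.0 and 46.7 CPM in Vectors A, B and C, 36.7, 34.7 and 38.5 in FOXL2-WT, 37.2, 46.7 and 46.7 in FOXL2-C134W, 36.7, 46.5 and 41.4 in FOXL2-WT + FOXO1 and 38.8, 41.4 and 52.0 in FOXL2-C134W + FOXO1. KIF20B measured 134.04, 116 and 118 CPM in Vectors A, B and C, 89.9, 88.5 and 103 in FOXL2-WT, 97.5, 133 and 137 in FOXL2-C134W, 89.4, 115 and 111 in FOXL2-WT + FOXO1 and 118, 107 and 136 in FOXL2-C134W + FOXO1. These kinesins act in cytokinesis. In all 4 genes, FOXL2-C134W A lay below FOXL2-C134W B and C and below all 3 Vectors libraries. FOXL2-WT + FOXO1 A was likewise the lowest library of its condition in all 4, and Vectors A the highest of its condition. MKI67 is the exception among the longest transcripts, since its FOXL2-C134W A value of 39.9 CPM was above 2 of the 3 Vectors libraries.

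**Figure D3:**
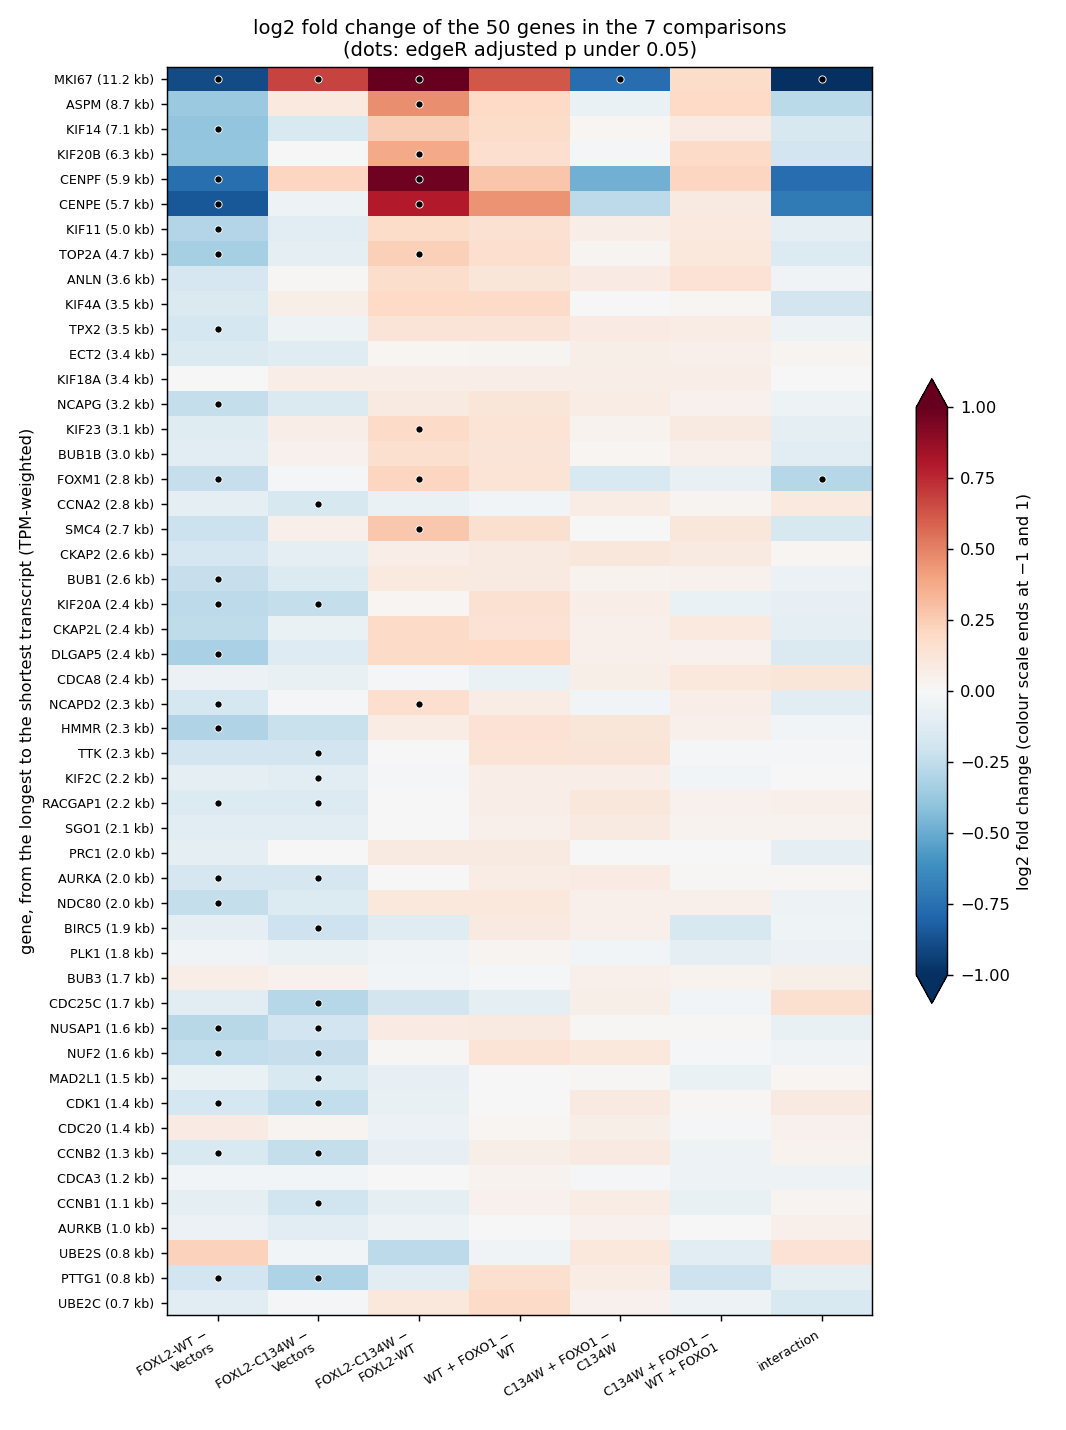
Log2 fold change (colour, scale ending at -1 and 1) of the 50 genes, ordered by mean transcript length, in the 7 comparisons, with a dot for edgeR adjusted p under 0.05. In FOXL2-C134W minus FOXL2-WT 6 of the 10 dots lie among the 8 genes of 4 kb or more, and in FOXL2-C134W minus Vectors all 15 falls lie among the shorter genes while MKI67 is the only rise.

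Adding FOXO1 to FOXL2-C134W was followed by a lower level of 1 of the 50 genes, MKI67, and 0 rose, beside 0.707% of all genes tested that fell and 0.00721% that rose. Of the 257 genes tested of 8 kb or more, which include MKI67, 3.89% fell. MKI67 went from 54.8 to 32.2 CPM (-0.77, SE 0.15, edgeR adjusted p = 0.022), and the 2 conditions did not overlap. This call was lost without FOXL2-C134W B (adjusted p = 0.13), without FOXL2-C134W C (0.14), without FOXL2-C134W + FOXO1 A (0.19) and without FOXL2-C134W + FOXO1 C (0.086), with log2 fold changes of -0.64 to -0.96 over the 6 fits. The value of CENPF was -0.48 (SE 0.18, edgeR adjusted p = 0.28), and without FOXL2-C134W A it was called (-0.75, adjusted p = 0.00073). The median of the other 48 genes was 0.05, and 8 of them were negative. The added FOXO1 went with less SMAD3 RNA, at 391.7 ± 16.9 CPM in FOXL2-C134W + FOXO1 against 843 ± 37.4 CPM in FOXL2-C134W (mean ± SD, n = 3), and the part of this in the FOXO1 comparisons was not tested.

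When FOXO1 was added to FOXL2-WT, none of the 50 was called by edgeR, beside 0.0144% of all genes tested that rose and 0.0361% that fell. An unadjusted edgeR p under 0.05 was reached by 15 of the 50 and by 1266 of the 13868 genes tested. DESeq2 called 0 of the 50 and DESeq2 with transcript length offsets called 3. MKI67 went from 18.5 to 28.2 CPM without overlap (0.62, SE 0.17, edgeR adjusted p = 0.25), CENPF from 33.2 to 40.2 CPM with overlap (0.28, SE 0.20, edgeR adjusted p = 0.70), and the median of the 50 was 0.10 with 42 positive. Here too SMAD3 RNA was lower with FOXO1, at 969 ± 10.8 CPM against 2768 ± 154 CPM, and FOXL2 RNA stood at 383.7 ± 14.97 against 561 ± 5.89 CPM (mean ± SD, n = 3). Between FOXL2-C134W + FOXO1 and FOXL2-WT + FOXO1, again 0 of the 50 were called by edgeR, beside 0.0361% of all genes tested that rose and 0.108% that fell. DESeq2 called 1 of the 50. By unadjusted edgeR p under 0.05, the counts in this comparison were 5 of the 50 and 1878 of the 13868 genes tested. The log2 difference there was 0.18 for MKI67 (interval -0.13 to 0.49) and 0.21 for CENPF (interval -0.15 to 0.58). All 8 genes with transcripts of 4 kb or more were positive in this comparison, with a median of 0.14, and none was called.

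The effect of FOXO1 differed between the 2 forms of FOXL2 for 2 of the 50 genes by the interaction test, both negative, beside 1.25% of all genes tested that were negative and 0.137% that were positive. Of the 257 genes tested of 8 kb or more, which include MKI67, 6.23% were called and negative. For MKI67 the effect in FOXL2-C134W minus that in FOXL2-WT was -1.39 (SE 0.23, edgeR adjusted p = 0.0067), called whichever of the 12 libraries was left out. For FOXM1 it was -0.29 (SE 0.07, edgeR adjusted p = 0.041), called in 3 of those 12 fits. Without FOXL2-C134W A 4 of the 50 genes were called, and only MKI67 in the 9 fits without FOXM1. CENPF was -0.76 (SE 0.27, edgeR adjusted p = 0.21) and CENPE -0.71 (SE 0.28, adjusted p = 0.27), neither of them called. MKI67 and CENPF thus had the same sign in all 7 comparisons, and MKI67 was called in 5 of them and CENPF in 2. These comparisons share libraries and are not independent of each other.

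The size of the log2 fold changes went with transcript length. Across the 50 genes, the Spearman correlation of mean transcript length with the log2 fold change of FOXL2-C134W over FOXL2-WT was 0.795, and across all 13868 genes tested 0.374. In FOXL2-WT against Vectors the values were -0.585 and -0.162, and in FOXL2-C134W against Vectors 0.464 and 0.243. With GC content in place of length, the values for the 50 genes were -0.395 between the forms, 0.532 in FOXL2-WT against Vectors and 0.0889 in FOXL2-C134W against Vectors. Over all genes tested these were 0.00647, 0.13 and 0.135. Genes in 1 set of libraries share their depth and their replicates, so these values are descriptions. All genes tested with transcripts under 2 kb had a median of -0.07 between FOXL2-C134W and FOXL2-WT, and those with 8 kb or more a median of 0.22. In that longest class 33.9% of 257 genes rose, against 1.58% of 6192 genes in the shortest. The libraries of FOXL2-C134W were not alike in this, since the median of the longest class around the mean of the 15 libraries was -0.02 in replicate A and 0.23 and 0.16 in B and C, and the part of replicate A in the class values was not tested. Among the 50, 6 of the 8 genes with transcripts of 4 kb or more rose and 4 of the 42 shorter ones, with medians of 0.43 and 0.02. Within their classes MKI67 and CENPF were near the top, since 1 of the 257 genes of 8 kb or more had a higher fold change than MKI67 and 7 of the 1668 genes of 4 to 6 kb a higher one than CENPF. With lengths weighted by reads CENPF falls in the class of 8 kb or more, where 15 of 581 genes had a higher fold change than CENPF and 1 a higher one than MKI67.

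An offset for gene length, which removes from each library the trend of all genes on length, left MKI67 at 1.30 (SE 0.12, edgeR adjusted p = 1.1e-06) and CENPF at 0.83 (SE 0.16, adjusted p = 0.0019) in FOXL2-C134W against FOXL2-WT. MKI67 was still called against Vectors, at 0.49 in FOXL2-C134W (edgeR adjusted p = 0.0033) and -0.81 in FOXL2-WT (edgeR adjusted p = 0.00031). TOP2A lost its call between the forms, at 0.14. The correlation of the 50 fold changes with length in that comparison was 0.547 with the offset. In FOXL2-WT against Vectors, with the offset, the correlation was -0.459 with length and 0.511 with GC content. Whether length, or something that goes with it in these libraries, sets the pattern was not tested.

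**Figure D4:**
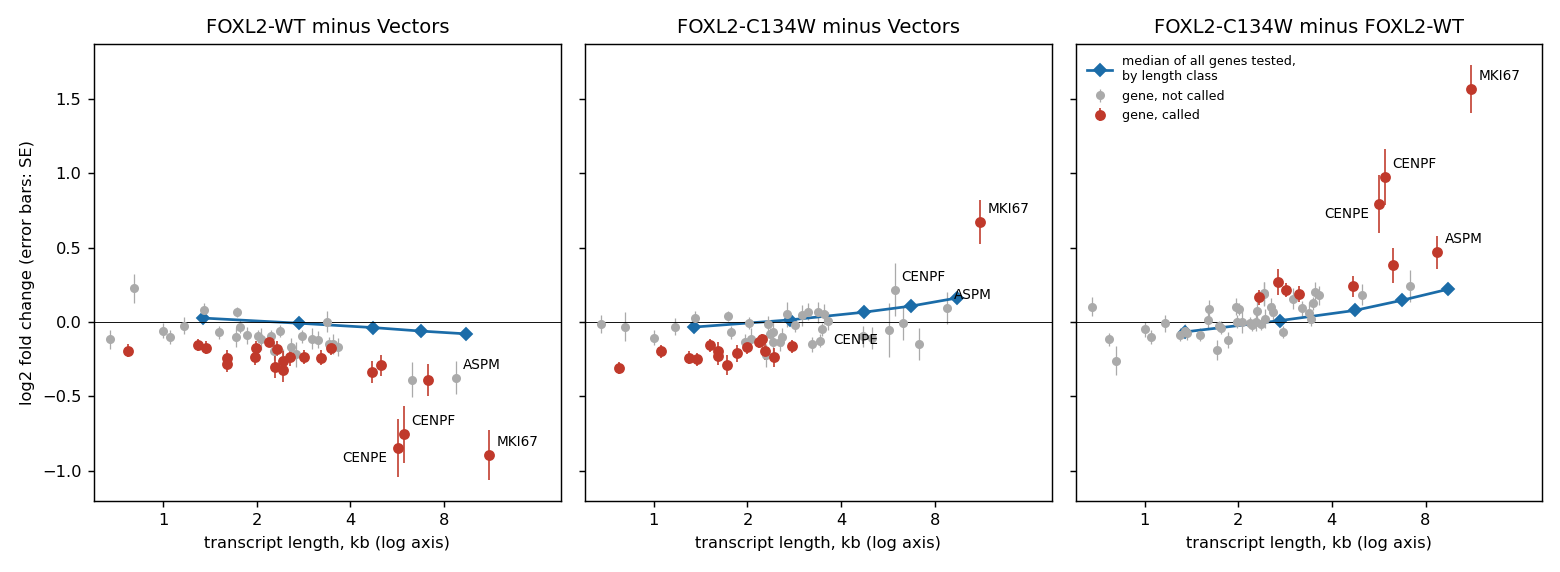
Log2 fold change with SE against TPM-weighted mean transcript length (log axis) for the 50 genes in 3 comparisons, red where called, with the median of all genes tested in 5 length classes as diamonds at the median length of each class. Between the forms of FOXL2 the class medians climb from -0.07 to 0.22, and MKI67, CENPF and CENPE lie well above them.

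Reads of MKI67 and CENPF were assigned mostly to long transcripts. MKI67-201 (11417 bases) and MKI67-202 (12716 bases) held 50.8% and 48.7% of the reads assigned to the gene. MKI67-201 had 11.1, 9.15 and 7.83 CPM in FOXL2-WT A, B and C and 22.9, 36.7 and 25.4 CPM in FOXL2-C134W. MKI67-202 had 6.28, 9.99 and 10.9 CPM in FOXL2-WT and 16.9, 26.0 and 35.5 CPM in FOXL2-C134W, so both were higher in FOXL2-C134W without overlap. For CENPF, CENPF-201 (10290 bases) held 96.6% of the reads. CENPF-204, of 734 bases, held 2.70% of the reads but 31.9% of the TPM, and the TPM-weighted length of the gene, 5.94 kb, is below that of its main transcript. The average effective length, the mean number of start positions a read can have on the gene's transcripts weighted by TPM, ran from 3736 to 6967 bases between libraries for CENPF and from 7815 to 11990 for MKI67. The route that divides by these lengths, DESeq2 with transcript length offsets, gave 1.84 for MKI67 (DESeq2 adjusted p = 5.2e-10) and 0.41 for CENPF (adjusted p = 0.45) in FOXL2-C134W against FOXL2-WT. The call for CENPF between the forms thus depended on whether these average lengths were used.

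**Figure D5:**
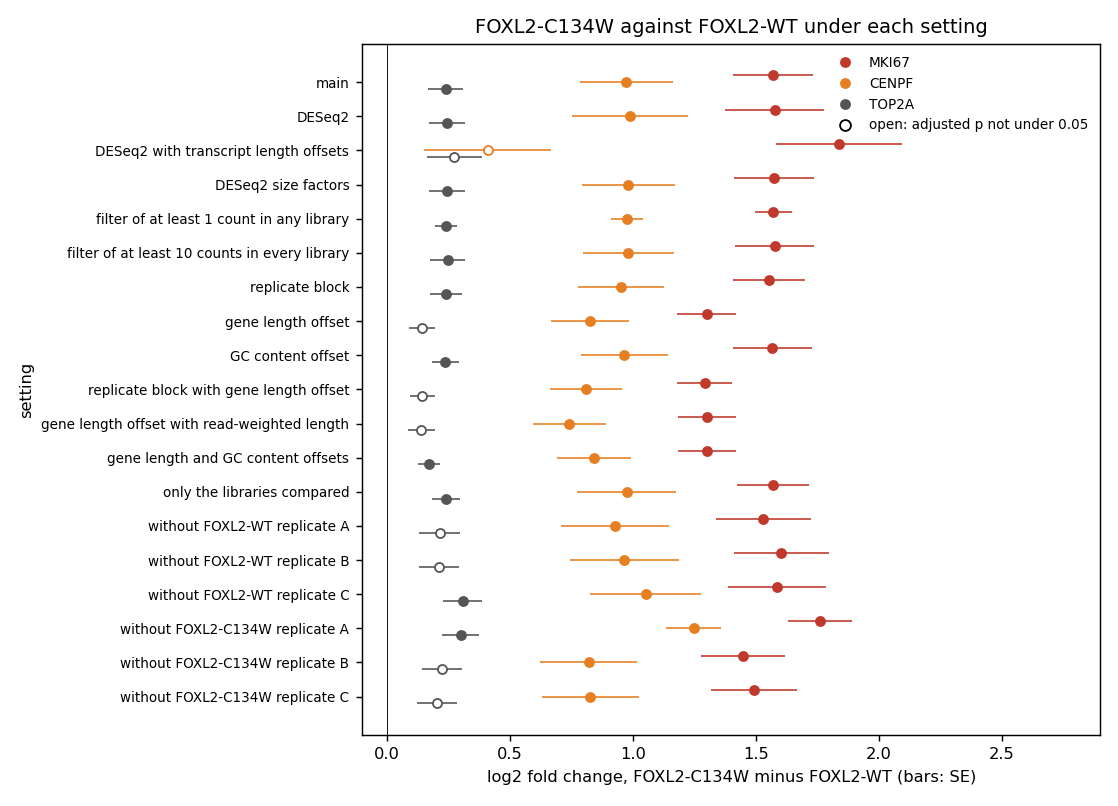
Log2 fold change with SE of MKI67, CENPF and TOP2A between FOXL2-C134W and FOXL2-WT under each setting, filled where the adjusted p is under 0.05 and open where it is not. MKI67 stays between 1.29 and 1.84 and is called under every setting shown, CENPF is open with DESeq2 and transcript length offsets, and TOP2A is open under several settings.

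Of the 50 genes, 17 were called in none of the 7 comparisons. The share of all genes tested that were called in none was not computed. In no comparison did more than 7.48% of all genes tested rise or more than 7.24% fall, so a gene without a call in 1 comparison is not unusual. These shares are those of single comparisons and do not give the share called in none of the 7. The 17 were the kinases PLK1 and AURKB, the passenger protein CDCA8, and the kinetochore and checkpoint genes BUB1B, BUB3 and SGO1. Also among them were the kinesins KIF18A and KIF4A, the spindle proteins CKAP2, CKAP2L and PRC1, and the cytokinesis proteins ANLN and ECT2. The rest were CDC20, UBE2C, UBE2S and CDCA3. The log2 fold changes of the 17 ran from -0.26 to 0.23 in FOXL2-WT against Vectors, from -0.12 to 0.07 in FOXL2-C134W against Vectors and from -0.26 to 0.20 between the forms. In the interaction they ran from -0.18 to 0.14. MKI67 was called in 5 comparisons, FOXM1 in 3, and the other 31 genes in 1 or 2.

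The genes whose profiles over the 15 libraries were most like that of MKI67 were mostly not mitotic genes. Likeness was the root mean square difference of centred log2-CPM. The 10 nearest of 13867 genes were CEP250 (0.17, correlation 0.97), MAP1A (0.22), SPEN (0.22), GOLGB1 (0.22), PRRC2C (0.22), CENPF (0.23, correlation 0.91), KMT2D (0.24), ZNF469 (0.25), ZFHX3 (0.25) and DST (0.25). The 100 nearest held 2 of the other 49 genes, CENPF and CENPE, and 4 of the 93 tested genes of a further mitotic list. Both are larger shares than the 100 of 13867 over all genes. The median transcript length of the 100 was 5.95 kb against 2.17 kb over all genes tested, and 77 of them were 4 kb or more, against 17.5% of all genes. The median rank of the other 49 genes was 3119 of 13867, and 2389 with the gene length offset. CCNB1 was at rank 7746, FOXM1 at rank 1017 and TOP2A at rank 786, and with the gene length offset at ranks 3584, 700 and 1134.

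For CENPF the 10 nearest were GOLGB1 (0.10, correlation 0.98), GOLGA4 (0.12), CNTRL (0.14), CENPE (0.14, correlation 0.94), TPR (0.16), BOD1L1 (0.16), PRRC2C (0.16), AKAP9 (0.16), MACF1 (0.17) and BDP1 (0.18). Its 100 nearest held CENPE, ASPM, MKI67 and KIF20B of the list, which are among its 8 genes with transcripts of 4 kb or more, and had a median length of 6.19 kb. The median rank of all other genes of the list was 2426 of 13867, and 1722 with the gene length offset. The median correlation with the other 48 genes was 0.31 for MKI67 and 0.43 for CENPF, over 15 libraries that share conditions and depth. After the gene length offset the 100 nearest of MKI67 still held CENPF and CENPE, and their median length was 4.69 kb, while those of CENPF held CENPE and MKI67 and no longer ASPM or KIF20B.

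Other genes of the cell cycle, in lists outside the 50, are given beside them. Of 93 tested genes of a further mitotic list, 20 fell and 0 rose in FOXL2-WT against Vectors (median -0.14). In FOXL2-C134W against Vectors 14 fell and 3 rose (median -0.04), and between the forms 1 fell and 14 rose (median 0.08). The 14 that rose between the forms include KIF5B and KIF1B, kinesins of transport that are not mitotic genes. The 3 that rose in FOXL2-C134W against Vectors were NUMA1, MAD1L1 and PCNT, and the 1 that fell between the forms was CENPA, the histone variant of centromeres. Adding FOXO1 to FOXL2-C134W was followed by a fall of 2 of the 93, KIF18B and NUMA1, beside 0.707% of all genes tested. None of the 93 was called when FOXO1 was added to FOXL2-WT, beside 0.0144% of all genes tested that rose and 0.0361% that fell. Over all genes tested, 3.61% fell in FOXL2-WT against Vectors, 7.24% fell and 7.48% rose in FOXL2-C134W against Vectors, and 4.12% fell and 7.13% rose between the forms, so the 3 of 93 that rose against Vectors are a smaller share than that of all genes. Of 21 cell cycle regulators, none was called in FOXL2-WT against Vectors, 3 fell in FOXL2-C134W against Vectors (LIN52, of the MuvB complex, and the CDK inhibitors CDKN1A and CDKN1B), and 2 rose and 4 fell between the forms.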

How the data were processed

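RNA of 15 HGrC1 libraries was sequenced as 75-base single-end reads of a stranded poly(A) kit. Per the labels and the submitters' processing notes, the authors quantified reads with Salmon 1.1.0 on hg38 (GRCh38). The deposited table holds estimated counts per gene, rounded to whole numbers, and the deposited transcript tables hold estimated reads and TPM per transcript. An estimated count rises with transcript length and with RNA quality along it, and reads of overlapping or similar transcripts are shared out by a model.

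Here edgeR 4.0.16 (R 4.3.3, limma 3.58.1) was fitted to the counts with TMM, filterByExpr and the quasi-likelihood test, with all 15 libraries in 1 model and Benjamini-Hochberg adjustment over 13868 genes. A gene was called at an adjusted p under 0.05. CPM values are TMM-scaled, log2-CPM used a prior count of 2, and approximate 95% intervals are normal intervals from the SE. Transcript lengths are means over transcripts weighted by TPM. GC content, gene positions and transcripts came from GENCODE 44, which held 98.4% of the deposited transcripts and can differ from the authors' release. Alternatives were DESeq2 1.42.0, with and without transcript length offsets, its size factors, other filters, only the libraries compared, a replicate block, offsets for length or GC content (lowess, span 0.3), and leaving out each library. Offsets for both together, and a length weighted by reads, were chosen after seeing the data. The fits were tested on simulated data. The figures were drawn with matplotlib 3.10.9.

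The 50 genes and all lists were chosen with earlier results of these data known. Named with values in every library were MKI67, CENPF and 12 genes chosen as standard mitotic genes or for long transcripts, and elsewhere genes called with the smallest p, all calls of a list and the 10 nearest profiles. Other genes named, such as those called in no comparison, were chosen after their values were seen. A list of replication genes is not reported here.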

Additional observations from a re-analysis of the deposited data

Results flagged for a closer look

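The effect of FOXO1 differed between the FOXL2 forms for 2 of the 50 genes, by the interaction test of edgeR. For MKI67 the log2 effect in FOXL2-C134W minus that in FOXL2-WT was -1.39 (adjusted p = 0.0067). FOXO1 went with a change of -0.77 in FOXL2-C134W and of 0.62 in FOXL2-WT, and the latter was not called by itself. All 12 fits that left out 1 library called the difference. FOXO1 RNA itself averaged 117 CPM where it was added to FOXL2-WT and 43.2 CPM where it was added to FOXL2-C134W. SMAD3 RNA went from 2768 to 969 CPM where FOXO1 was added to FOXL2-WT and from 843 to 391.7 CPM where it was added to FOXL2-C134W, and FOXL2 RNA from 561 to 384 CPM and from 147 to 152 CPM. The part of these amounts in the difference was not tested.

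For FOXM1 the difference was -0.29 (edgeR adjusted p = 0.041), from -0.15 in FOXL2-C134W and 0.14 in FOXL2-WT, and 3 of the 12 fits that left out 1 library called it. Groups of 3 libraries were not searched for outlying samples.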

How the results depend on the processing

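The depth was 14962245 to 25339094 estimated counts per library, and with 3 libraries per condition the counts of called genes moved more with single libraries than with most settings. Leaving out 1 library at a time gave 2 to 21 called genes in FOXL2-WT against Vectors, 8 to 13 in FOXL2-C134W against Vectors, 3 to 17 in FOXL2-C134W against FOXL2-WT, 0 to 2 when FOXO1 was added to FOXL2-C134W and 1 to 4 in the interaction. It gave 0 in every fit when FOXO1 was added to FOXL2-WT and between the forms with FOXO1.

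DESeq2 with transcript length offsets gave 8, 7, 4, 3 and 0 called genes in FOXL2-WT against Vectors, FOXL2-C134W against Vectors, FOXL2-C134W against FOXL2-WT, FOXO1 added to FOXL2-WT and FOXO1 added to FOXL2-C134W, and 1 in the interaction. Under it NUF2 reversed in FOXL2-WT against Vectors (0.43, DESeq2 adjusted p = 0.44) and CENPF when FOXO1 was added to FOXL2-WT (-0.16, adjusted p = 0.94), and MKI67 was not called in FOXL2-C134W against Vectors (0.66, adjusted p = 0.10). The cause was not tested. DESeq2 without these offsets gave 1 between the forms with FOXO1.

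Keeping every gene with at least 1 count in any library gave 18 between the forms (17 up, 1 down), 17 in FOXL2-C134W against Vectors (2 up, 15 down), 6 when FOXO1 was added to FOXL2-WT, 2 when it was added to FOXL2-C134W, 5 between the forms with FOXO1 and 5 in the interaction, with smaller standard errors (0.076 against 0.16 for MKI67 between the forms). Requiring 10 counts in every library gave 1 between the forms with FOXO1. The GC content offset gave 16 between the forms (15 up, 1 down), 1 between the forms with FOXO1 and 1 in the interaction, and offsets for length and GC content together, chosen after seeing the data, gave 16 between the forms. Fitting only the libraries compared gave 0 when FOXO1 was added to FOXL2-C134W, where MKI67 had an adjusted p of 0.055 by edgeR. With the gene length offset, the 100 genes nearest CENPF held 2 of the list in place of 4.

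The letters A, B and C are not said to mark a shared culture or day. Of 30 pairs of libraries with the same letter, 2 had deviations that correlated above 0.1 (range -0.164 to 0.166, median 0.0036), so the letters were not taken as pairs. A replicate block gave 25, 16 and 12 called genes in FOXL2-WT against Vectors, FOXL2-C134W against Vectors and between the forms, 1 when FOXO1 was added to FOXL2-C134W and 1 in the interaction, and with the gene length offset 29, 20, 9, 1 and 2.

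Over the log2 fold changes of the named genes, 626 of the values under other settings kept direction and side of the threshold, 62 lost the call, 6 gained it and 2 reversed. With 1 library left out, 209 kept both, 154 lost the call and 3 gained it.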
